A study of Mus musculus with 8 samples.

Results

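The genes described here encode collagens and the glycoproteins that share the extracellular matrix with them. The list holds 47 genes: fibrillar collagens, basement membrane collagens and laminins with their linker proteins, matricellular proteins, other collagens, elastic fiber proteins with versican, and 2 surface proteins of fibroblasts. Members were taken by gene name. Of the 47 genes, 46 were measured, among 22180 genes on the array, and *Fbn1* was not analysed here. Each gene was read from a probe set annotated with its symbol alone, the one with the highest mean where there were several, and *Ctgf* and *Cyr61* were matched through their newer names *Ccn2* and *Ccn1*.

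RNA came from 4 DTC tumors (DTC1 to DTC4) and 4 mammary tumors (T1 to T4), all with a BALB-neuT origin, and the question was how tumors seeded by disseminated tumor cells (DTC) differ from tumors seeded by mammary tumor cells. BALB-neuT mice carry an activated rat *Her2/neu* gene under the mouse mammary tumor virus promoter. By the labels, DTC tumors grew from 3000000 to 5000000 cells of pooled BALB-neuT bone marrow and mammary tumors from 100000 tumor cells. The methods of the study give another number of bone marrow cells. The cells were injected under the skin in Matrigel, a gel of basement membrane proteins, with the growth factor bFGF. The hosts were NSG mice, which lack T, B and NK cells but keep fibroblasts, vessels and macrophages. The labels name the bone marrow cells as early DTC, whereas the text of the study describes late donors. The labels also name the mammary tumors as TUBO-derived, TUBO being a cell line from a BALB-neuT tumor, whereas the methods name primary mammary tumors. If TUBO cells were used, traits of that 1 line and of mammary tumors as a type cannot be told apart. The age of the hosts is not given in the sources used here.

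Fibrillar collagens are secreted as procollagens, trimmed, and assembled into the cross-linked fibers that give tissue its tensile strength. Basement membranes are thin sheets under epithelium and around vessels, built from separate networks of laminin and type IV collagen that nidogens and perlecan tie together. Matricellular proteins such as tenascin C and periostin hardly bear load and instead alter how cells hold and read the matrix. In mammary tumors most fibrillar collagen is made by fibroblasts, while epithelium, endothelium and pericytes all add to basement membranes.

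The start regions of 5 members are shown, and no result below depends on them. They are *Col4a1* and *Col4a2*, partner chains of 1 collagen, *Col18a1* and *Lamb2*, whose tumor groups did not overlap, and *Tnc*, which varied most between tumors. Each is a RefSeq window of the GRCm38.p6 build, from 250 bases before to 50 bases after a transcript start, written 5′ to 3′ on the gene's own strand. Capitals mark the CCAAT box, the GC box written GGGCGG, and the TATA box written TATAAA, on either strand. The windows lie at chr8:11312777-11313076 on the minus strand (*Col4a1*), chr8:11312555-11312854 on the plus strand (*Col4a2*), chr10:77166481-77166780 on the minus strand (*Col18a1*, the farther upstream of its windows), chr9:108479612-108479911 on the plus strand (*Lamb2*) and chr4:64046966-64047265 on the minus strand (*Tnc*, the farther upstream of its windows).
Col4a1: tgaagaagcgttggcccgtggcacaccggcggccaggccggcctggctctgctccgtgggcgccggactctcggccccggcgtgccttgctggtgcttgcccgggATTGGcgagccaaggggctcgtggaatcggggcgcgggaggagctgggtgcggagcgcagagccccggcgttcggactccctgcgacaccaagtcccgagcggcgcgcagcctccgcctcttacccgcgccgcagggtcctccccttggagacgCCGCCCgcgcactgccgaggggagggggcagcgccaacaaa
Col4a2: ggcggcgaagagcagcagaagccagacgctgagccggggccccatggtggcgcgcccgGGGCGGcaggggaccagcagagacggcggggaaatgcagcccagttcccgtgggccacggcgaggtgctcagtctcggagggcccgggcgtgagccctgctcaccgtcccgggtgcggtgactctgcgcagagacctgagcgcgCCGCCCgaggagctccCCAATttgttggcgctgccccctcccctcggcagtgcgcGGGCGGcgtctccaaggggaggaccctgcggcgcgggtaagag
Col18a1: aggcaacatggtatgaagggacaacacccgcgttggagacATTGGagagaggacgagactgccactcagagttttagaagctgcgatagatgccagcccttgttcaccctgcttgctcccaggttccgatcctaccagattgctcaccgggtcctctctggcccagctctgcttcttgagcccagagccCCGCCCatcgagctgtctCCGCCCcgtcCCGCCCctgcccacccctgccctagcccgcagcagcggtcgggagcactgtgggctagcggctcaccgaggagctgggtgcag
Lamb2: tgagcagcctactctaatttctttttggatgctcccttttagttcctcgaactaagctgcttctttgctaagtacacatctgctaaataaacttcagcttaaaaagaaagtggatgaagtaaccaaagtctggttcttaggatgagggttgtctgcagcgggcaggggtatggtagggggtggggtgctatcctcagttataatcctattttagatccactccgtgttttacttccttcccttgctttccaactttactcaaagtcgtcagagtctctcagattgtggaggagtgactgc
Tnc: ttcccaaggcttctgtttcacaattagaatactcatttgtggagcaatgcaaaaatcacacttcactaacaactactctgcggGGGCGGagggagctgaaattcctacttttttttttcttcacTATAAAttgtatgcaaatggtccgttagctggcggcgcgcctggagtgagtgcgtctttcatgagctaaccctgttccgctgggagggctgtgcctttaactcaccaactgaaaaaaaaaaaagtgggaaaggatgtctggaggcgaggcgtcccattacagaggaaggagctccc
The *Col4a1* and *Col4a2* genes are read in opposite directions from starts 21 bases apart, so that their windows share 78 bases, chr8:11312777-11312854. A window was found for 31 of the 46 measured members, 37 windows in all, and none for *Mfap5*, whose groups did not overlap either. The GC box stood in 23 of the 37 (62.2%) against 35.7% of the 32851 windows in the table. The CCAAT box stood in 15 (40.5%) against 37.4%, and the TATA box in 7 (18.9%) against 13.6%. The *Lamb2* window held none of the 3 motifs. These are matches of letters and describe no binding.

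Matrix genes did not separate the tumor types as a group. Of the 46 members, 24 averaged higher in DTC tumors and 22 averaged lower, and their median log2 fold change was 0.01, as was that of all 22180 genes. Each log2 fold change is the DTC mean minus the mammary mean, the reverse of the ratio used in the study. The differences ran from -0.63 (*Mfap5*) to 0.71 (*Col18a1*), so no member reached a 2-fold change, which is an absolute log2 fold change of 1. A filter on the interquartile range over the 8 arrays, above 0.25, left 26 members for limma and removed 20. Of those 26, 0 passed a Benjamini-Hochberg adjusted p of 0.05 in limma, with or without the fold threshold, and the lowest adjusted p was 0.195. Of all 18877 probe sets tested, 27 passed that adjusted p (0.143%) and 25 passed the fold threshold as well (0.132%).

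At an unadjusted limma p of 0.05, 2 of the 26 were higher in DTC tumors, *Col18a1* and *Fbln2*, where 6.47% of all tested probe sets were. Another 3 were lower, *Col11a1*, *Lamb2* and *Mfap5*, where 8.28% of all tested probe sets were. Counted by gene, with 1 probe set each as for the members, 636 of 8282 tested genes were higher and 1002 lower. Among the 5520 tested genes that were not dim in both groups, 547 were higher and 953 lower. The 4 DTC tumors lay wholly above the 4 mammary tumors for 1 of 46 members, *Col18a1*, and wholly below them for 2, *Lamb2* and *Mfap5*. Among all genes the groups did not overlap for 3.89% in the higher and 5.76% in the lower direction, and among the 13803 genes that were not dim in both groups for 4.97% and 8.59%. A gene was called dim where its group mean lay at or below 5.08, the 95th percentile of olfactory receptor probe sets, and *Lama3* was the only member dim in both groups. These shares are close to the background. With 1 tumor left out, overlap was rarer over all genes too: 4 members were wholly higher without DTC4, where 6.17% of all genes and 7.4% of non-dim genes were, and 4 wholly lower without DTC3, where 9.17% and 13.3% were. Whether the tumors of a group grew in separate mice is not stated, so p-values cover the spread among these tumors only. An exact permutation test of 4 tumors against 4, two-sided, cannot give a p below 0.0286. In a bulk tumor, fewer cells that make a transcript and less of it per cell cannot be told apart.

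**Figure D1:**
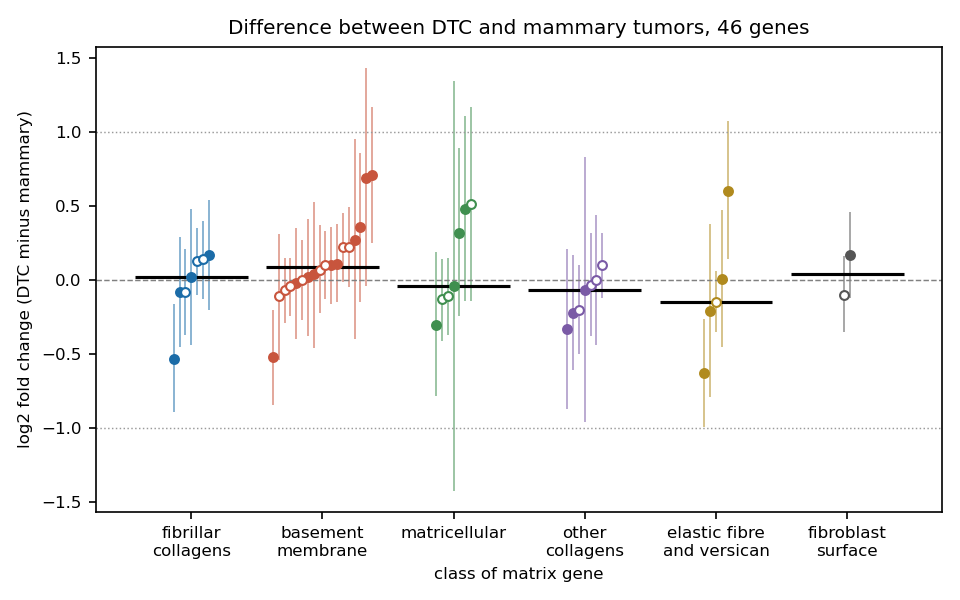
Log2 fold change (DTC minus mammary tumors, y axis) of the 46 measured genes by class (x axis). Filled points were tested in limma and open points were removed by the interquartile filter. Thin lines are 95% intervals from limma without that filter, black bars are class medians, and dotted lines mark a 2-fold change. Every class median lies between -0.15 and 0.09, and no point passes a dotted line.

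Among the fibrillar collagens, the chains of the load-bearing fibers, the main type I and III genes had nearly equal means in both tumor types, and only *Col11a1* had an unadjusted p below 0.05. All 7 genes were measured, 4 were tested, and the median log2 fold change was 0.02. *Col1a1*, the major chain of type I collagen, read 10.11, 9.89, 10.68 and 10.07 in DTC1 to DTC4 and 9.90, 9.89, 10.51 and 10.35 in T1 to T4 on the log2 scale. Its difference of 0.02 had a 95% interval of -0.47 to 0.51 in limma, which leaves room for a change of that size either way. *Col1a2*, the partner chain, differed by -0.08 and *Col3a1*, of type III collagen, by -0.08. A second *Col1a2* probe set, also above the dim limit, differed by 0.20, the other way. Within each type the tumors spread widely and overlapped: DTC3 was the highest DTC tumor for both type I chains and T3 the highest mammary tumor. The 2 chains deviated from their own 8-tumor means with the same sign in 8 of 8 tumors, with a largest gap of 0.18 between them, in T2.

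*Col11a1*, a minor chain that limits fiber width in cartilage and is also made in tumor stroma, read 8.97, 8.87, 9.50 and 8.95 in DTC1 to DTC4 and 9.49, 9.49, 9.90 and 9.52 in T1 to T4. DTC1, DTC2 and DTC4 lay below every mammary tumor, while DTC3 came level with T1 and T2, and without DTC3 the groups did not overlap. The means were 9.07 ± 0.29 and 9.60 ± 0.20 (SD, n = 4 each), a log2 fold change of -0.53 with a standard error of 0.19. The limma adjusted p was 0.261, and the two-sided exact permutation p was 0.0857. *Col5a1*, a type V chain that starts fiber assembly, had the next largest difference at 0.17 (SE 0.19, limma adjusted p = 0.772). It read 7.17, 7.07, 7.49 and 6.93 in the DTC tumors and 6.81, 6.81, 7.37 and 7.01 in the mammary tumors, with DTC3 and T3 the highest of their groups, and the exact permutation p was 0.4. The remaining type V chains, *Col5a2* and *Col5a3*, had higher means in DTC tumors by 0.13 and 0.14 and were not tested.

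Basement membrane genes formed the largest class. In it, *Col18a1* was higher and *Lamb2* lower in every DTC tumor than in any mammary tumor. Of 18 measured genes, 12 averaged higher in DTC tumors and 6 averaged lower, and the class median was a log2 fold change of 0.09. Of the 10 tested, 0 passed the limma adjusted p of 0.05. *Col18a1*, the proteoglycan-bearing collagen of vessel and epithelial basement membranes and the source of endostatin, read 7.22, 6.66, 7.04 and 6.50 in DTC1 to DTC4. The mammary tumors read 6.18, 5.70, 6.23 and 6.48, so that DTC4 and T4 nearly touched. Means were 6.86 ± 0.33 and 6.15 ± 0.33 (SD, n = 4 each), a 1.63-fold difference with a log2 fold change of 0.71 (95% interval 0.22 to 1.20). The limma adjusted p was 0.214 and the exact permutation p was 0.0286, the smallest possible. When each array was centered on its median, *Col18a1* overlapped too and 0 members lay wholly above.

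*Col15a1*, a relative of *Col18a1* that links basement membranes to the fibers beneath, read 8.22, 7.84, 6.56 and 7.91 in DTC1 to DTC4 and 6.83, 6.62, 7.12 and 7.20 in T1 to T4. DTC3 lay below all 4 mammary tumors while the other DTC tumors lay above all of them. The log2 fold change was 0.69 (SE 0.32, limma adjusted p = 0.353, exact permutation p = 0.143), and without DTC3 it was 1.05 and the groups did not overlap. *Col7a1*, the anchoring fibril collagen of skin, was likewise uneven, with 6.47 and 7.07 in DTC1 and DTC2 and 5.64 and 5.68 in DTC3 and DTC4.

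The laminins, heterotrimers that organize the cell-facing side of the sheet, were uneven across their chains. *Lamb2*, a beta chain of vessel and muscle basement membranes, read 8.42, 8.33, 8.52 and 8.61 in DTC1 to DTC4 and 8.85, 8.69, 9.11 and 9.31 in T1 to T4. All DTC tumors lay below all mammary tumors, with DTC4 and T2 the nearest pair. Means were 8.47 ± 0.12 and 8.99 ± 0.27 (SD, n = 4 each), a log2 fold change of -0.52 (95% interval -0.91 to -0.13) with a limma adjusted p of 0.245 and an exact permutation p of 0.0286. *Lamb1*, the other main beta chain, had nearly equal means, 8.76 ± 0.24 and 8.72 ± 0.45 (SD, n = 4 each). Both beta chains parted most in T4, where *Lamb1* was 0.59 below its own 8-tumor mean and *Lamb2* 0.57 above its own.

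*Lamc1*, the gamma chain of most laminins, had a higher mean in DTC tumors by 0.22 and read 9.44 to 9.69 there against 9.23 to 9.47 in the mammary tumors, so that T3 alone overlapped the DTC tumors. Among alpha chains, *Lama4* of vessels differed by 0.11, *Lama5* by -0.02 and *Lama1* by -0.04. *Lama3* and *Lamb3*, chains of the laminin that anchors epithelium, differed by -0.07 and 0.10. None of these passed limma's adjusted p, and *Lamc1*, *Lama1* and *Lama3* were not tested.

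*Col4a1* and *Col4a2*, the paired chains whose start regions are printed above, read 8.88, 8.60, 8.74 and 8.50 and 8.27, 7.90, 8.0 and 7.67 in DTC1 to DTC4. In T1 to T4 they read 8.43, 8.58, 8.56 and 8.27 and 7.81, 7.92, 7.98 and 7.83. DTC1 was the highest of the 8 tumors for both chains. Their deviations from their own means lay within 0.21 of each other in every tumor, against up to 1.16 for the *Lamb1* and *Lamb2* pair, but had the same sign in 5 of 8 tumors only, with small spreads within groups (pooled SD 0.16 and 0.18). Group differences were 0.22 and 0.07, with exact permutation p of 0.114 and 0.6. Of the linkers, *Nid2* differed by 0.36 (limma adjusted p = 0.546), *Nid1* by -0.11 and *Hspg2*, perlecan, by 0.02. In all 3 of them T4 was the highest mammary tumor and DTC1 or DTC3 the highest DTC tumor. *Col4a5* and *Col17a1* differed by 0.00 and 0.10.

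**Figure D2:**
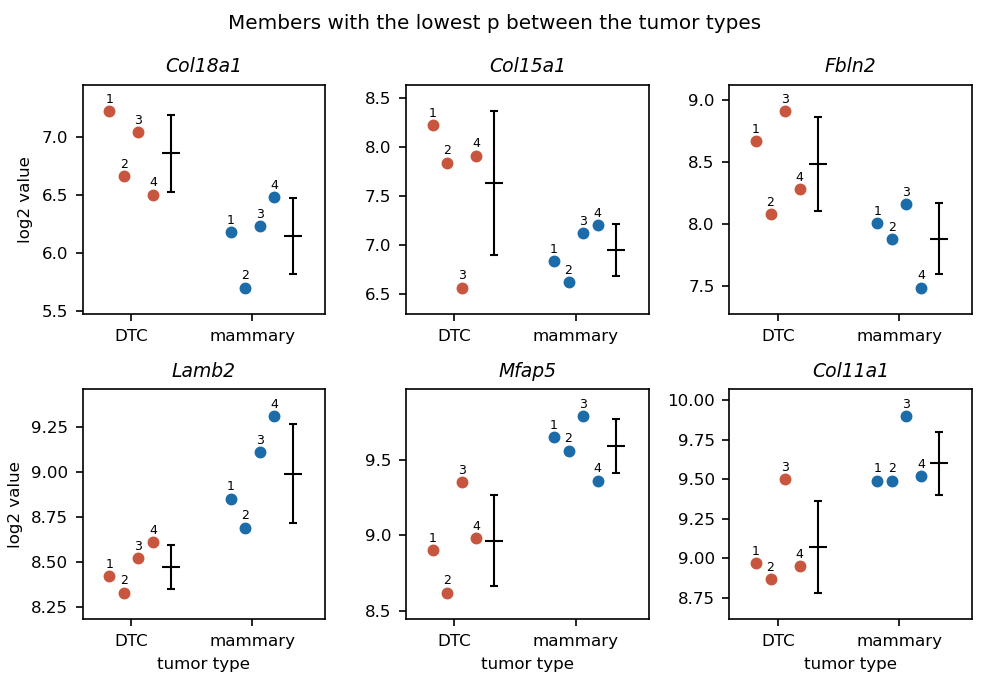
Log2 value (y axis) of 6 members in each DTC and mammary tumor (x axis); points carry the tumor's number, and bars are the mean ± SD of 4 tumors. *Col18a1*, *Lamb2* and *Mfap5* have groups that do not overlap, while DTC3 stands with or beyond the mammary tumors for *Col11a1* and *Col15a1*.

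Matricellular genes, taken as a class, varied more within the tumor types than between them. Their median SD within groups was 0.41, and their median absolute log2 fold change was 0.30. *Cyr61* and *Thbs2* went the other way, with differences of 0.51 and 0.48 and pooled SDs of 0.49 and 0.46. All 7 were measured, the median log2 fold change was -0.04 (0.44 without DTC4), and 5 of the 7 were in the top 10% of non-dim genes by spread within groups. *Tnc*, tenascin C, an adhesion-modulating protein of wounds and tumor stroma, read 8.32, 7.85, 10.10 and 6.83 in DTC1 to DTC4, a 9.68-fold range. In T1 to T4 it read 8.0, 8.03, 9.23 and 8.0. DTC3 and T3 were high, DTC4 was the lowest of the 8, and the group means, 8.28 ± 1.37 and 8.32 ± 0.61 (SD, n = 4 each), were nearly equal. Its spread within groups was at the 99.5th percentile of non-dim genes, and *Tnc* is described here because of that spread, seen in these values. The 95% interval of its difference, -1.31 to 1.23 in limma, covers a change of more than 2-fold either way.

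*Cyr61*, a growth factor-like integrin ligand, had the largest mean difference of the class, 0.51, and read 9.69, 9.25, 10.35 and 9.34 in DTC1 to DTC4 and 9.45, 9.33, 9.34 and 8.44 in T1 to T4. DTC3 was high and T4 low, while the other 6 tumors lay between 9.25 and 9.69. The interquartile filter removed it because those 6 lie so close together. Without the filter the limma standard error was 0.29 and the adjusted p was 0.562, and the exact permutation p was 0.257. *Thbs2*, an inhibitor of vessel growth, read 9.09, 8.99, 9.55 and 8.15 in the DTC tumors and 8.40, 8.37, 8.87 and 8.20 in the mammary tumors. DTC4 was the lowest of all 8 and the other DTC tumors lay above every mammary tumor, for a log2 fold change of 0.48 (SE 0.28, limma adjusted p = 0.467, exact permutation p = 0.257).

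*Ctgf*, a target of TGF-beta and YAP signaling, differed by 0.32 and was highest in DTC1 and DTC3. *Postn*, periostin, differed by -0.30 and read 9.30 to 10.32 in DTC tumors and 9.70 to 10.25 in mammary tumors. *Sparc* and *Thbs1*, a collagen-binding glycoprotein and an activator of latent TGF-beta, differed by -0.11 and -0.13 and were not tested. DTC3 was the highest DTC tumor for 5 of the 7 matricellular genes, and the class median lay 0.48 above the 8-tumor means there against -0.31 in DTC4.

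Among the other collagens, the beaded-filament, network and fiber-associated types, 2 of 7 averaged higher in DTC tumors, and the class median was a log2 fold change of -0.07 (-0.26 without DTC3). *Col14a1*, a fiber-associated collagen, read 7.37, 7.43, 7.43 and 8.42 in DTC1 to DTC4 and 8.11, 8.23, 7.96 and 7.68 in T1 to T4. DTC4 was the highest of the 8 tumors and the other DTC tumors the lowest 3, for a log2 fold change of -0.33 (SE 0.25, limma adjusted p = 0.604, exact permutation p = 0.286). Without DTC4 the groups did not overlap. *Col6a1*, a chain of the beaded filaments around cells, read 8.71, 8.59, 8.86 and 8.36 in the DTC tumors and 8.65, 8.54, 9.23 and 8.98 in the mammary tumors. T3 and T4 were the highest, and the difference was -0.22 (SE 0.20, limma adjusted p = 0.687, exact permutation p = 0.314). A second *Col6a1* probe set, also not dim, differed by 0.11, the other way. Its partners *Col6a2* and *Col6a3* differed by -0.20 and 0.00, and DTC4 was the lowest of all 8 tumors for each of the 3 chains.

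*Col12a1*, a fiber-associated collagen of tendon and tumor stroma that binds tenascins, was the other member with a very wide spread, and it too is singled out for its values. It read 8.82, 7.73, 9.94 and 8.59 in DTC1 to DTC4, a 4.62-fold range, and 9.13, 8.73, 9.03 and 8.47 in T1 to T4. DTC3 was the highest and DTC2 the lowest of the 8 tumors. Its deviation had the same sign as that of *Tnc* in 7 of 8 tumors, with a gap of 1.25 in DTC4. *Col8a1* and *Col16a1*, made by vessels and by many stromal cells, differed by -0.03 and 0.10.

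In the elastic fiber class, *Mfap5* and *Fbln2* lay on opposite sides, and the median log2 fold change was -0.15. *Mfap5*, a microfibril glycoprotein made by fibroblasts, read 8.90, 8.62, 9.35 and 8.98 in DTC1 to DTC4 and 9.65, 9.56, 9.79 and 9.36 in T1 to T4. No DTC tumor reached a mammary tumor, although DTC3 and T4 nearly met. Means were 8.96 ± 0.30 and 9.59 ± 0.18 (SD, n = 4 each), a 1.55-fold difference with a log2 fold change of -0.63 (95% interval -1.05 to -0.21). The limma adjusted p of 0.195 was the lowest of all members, and the exact permutation p was 0.0286.

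*Fbln2*, a fibulin that bridges elastic fibers and basement membranes, read 8.67, 8.08, 8.91 and 8.28 in DTC1 to DTC4 and 8.01, 7.88, 8.16 and 7.49 in T1 to T4. Only DTC2 lay within the mammary range, just below T3. The log2 fold change was 0.60 (SE 0.22), with a limma adjusted p of 0.273 and an exact permutation p of 0.0571. *Eln*, elastin, differed by -0.21, *Fbln1* by -0.15 and *Vcan*, versican, by 0.01. *Eln* had its lowest values in DTC1 and T4, at 5.69 and 5.53, within a range up to 6.67.

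The 2 fibroblast surface genes differed little. *Thy1*, a membrane glycoprotein of fibroblasts and T cells, read 7.58, 7.56, 7.54 and 7.34 in the DTC tumors and 7.13, 7.14, 7.53 and 7.53 in the mammary tumors. DTC4 was the only DTC tumor inside the mammary range (log2 fold change 0.17, SE 0.17, limma adjusted p = 0.719, exact permutation p = 0.171). *Fap*, a protease of activated fibroblasts, read 6.59, 6.66, 6.54 and 6.60 in the DTC tumors and 6.54, 6.90, 6.51 and 6.80 in the mammary tumors. Its difference was -0.10, with a limma standard error of 0.11 and an adjusted p of 0.816 without the filter and an exact permutation p of 0.4.

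Set side by side, the fibrillar, basement membrane and matricellular classes did not part between the tumor types by more than the tumors of a type differed among themselves. In each tumor the class median of deviations from the 8-tumor means was taken, and 1 class was subtracted from another. Fibrillar minus basement membrane averaged -0.06 ± 0.17 in DTC tumors and 0.08 ± 0.16 in mammary tumors (SD, n = 4 each). Fibrillar minus matricellular averaged -0.04 ± 0.26 and 0.10 ± 0.23, and basement membrane minus matricellular 0.02 ± 0.34 and 0.02 ± 0.19. No test was made on these class values.

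What the classes did show was a pattern by single tumor. DTC3 was the highest DTC tumor for 20 of 46 members (43.5%) against 29.3% of non-dim genes. T3 was the highest mammary tumor for 21 (45.7%) against 24.7%. In the fibrillar class DTC3 led its group for 4 of 7 genes and T3 for 6 of 7, with class medians 0.16 and 0.29 above the 8-tumor means. In the basement membrane class, DTC1 led the DTC tumors for 10 of 18 genes, with a class median of 0.20. T4 led the mammary tumors for 11 of 18 but was the lowest for 5, and its class median was 0.02. DTC3 was the lowest DTC tumor for 8 of the 18. Over non-dim genes, T4 was the lowest mammary tumor for 31.8% and DTC3 the lowest DTC tumor for 30.4%. DTC1 was the highest DTC tumor for 23.3% of non-dim genes and T4 the highest mammary tumor for 27.8%. DTC2 was the lowest DTC tumor for 17 of 46 members and DTC4 for 16 (37% and 34.8%), against 23.3% and 27.2% of non-dim genes. The members varied more within groups than genes in general, with a median SD of 0.25 against 0.17 on the log2 scale, and 12 of 46 were in the top 10% of non-dim genes by that spread and 25 in the top 25%.

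**Figure D3:**
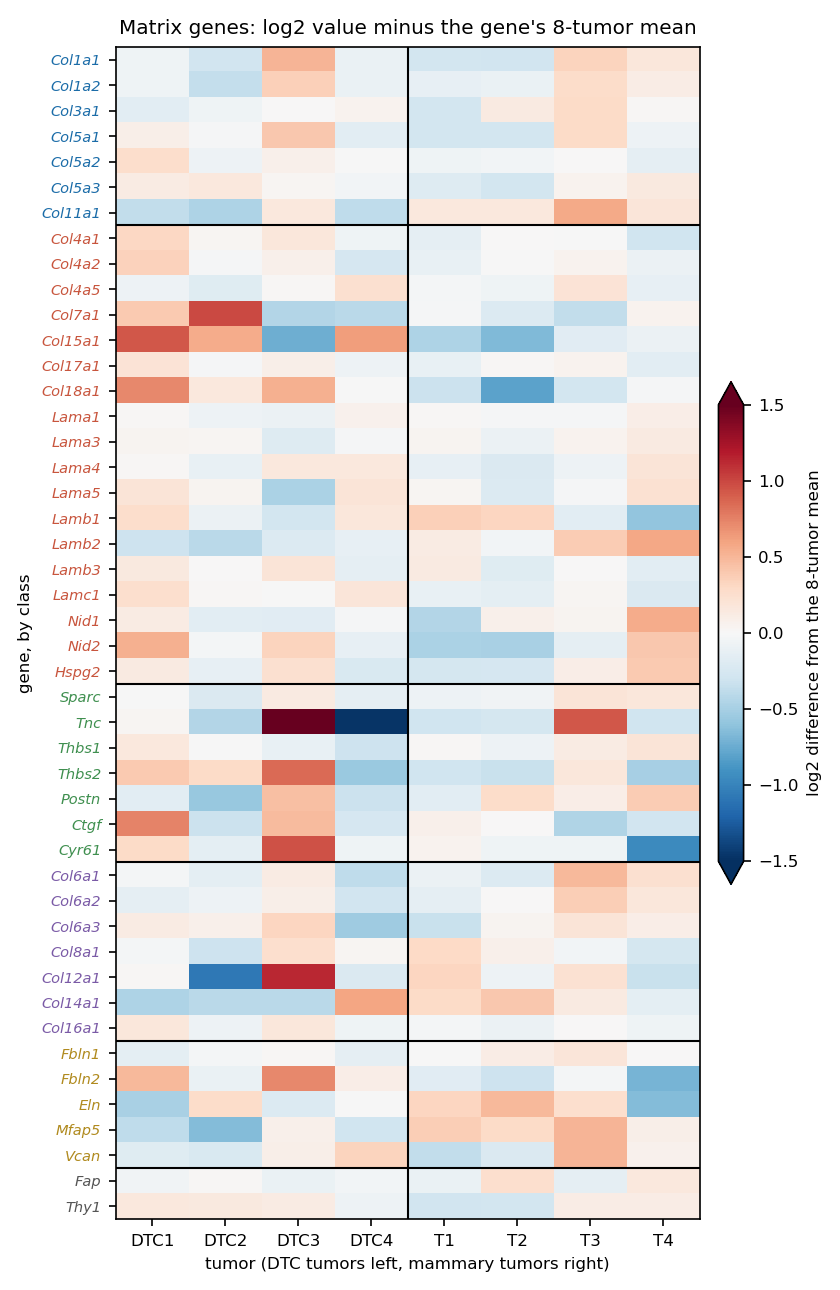
Log2 value minus the gene's 8-tumor mean (color) for the 46 measured genes (rows, grouped by class in the order fibrillar, basement membrane, matricellular, other collagens, elastic fiber with versican, and fibroblast surface) in the 8 tumors (columns). Color is capped at 1.5 either way, which only *Tnc* in DTC3 exceeds. Columns DTC3 and T3 are mostly warm in the fibrillar, matricellular and other collagen blocks, and no block is warm in 1 tumor type and cool in the other throughout.

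**Figure D4:**
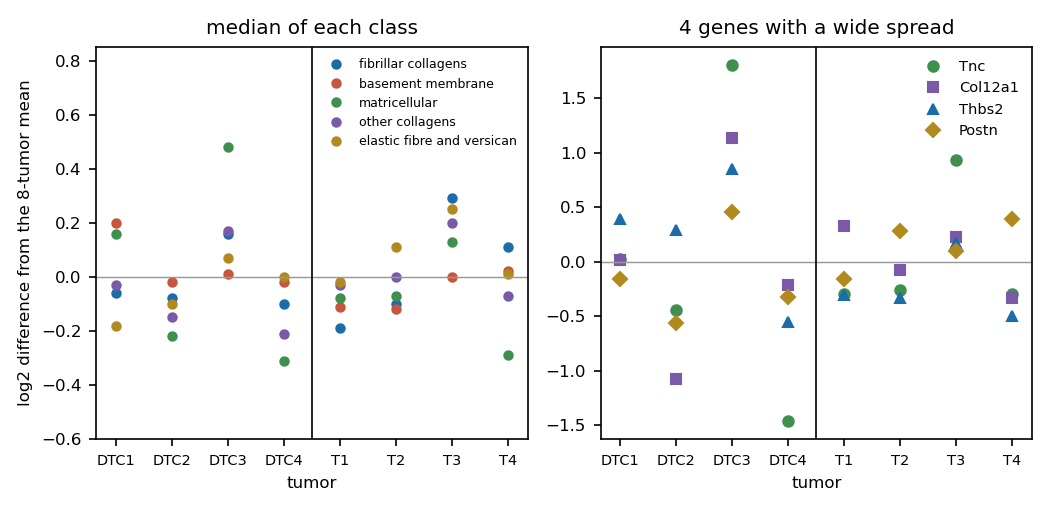
Difference from the 8-tumor mean (y axis, log2) in each tumor (x axis), as the median of each class on the left and for *Tnc*, *Col12a1*, *Thbs2* and *Postn* on the right. The matricellular median runs from -0.31 in DTC4 to 0.48 in DTC3, and all 4 genes are above their means in DTC3 and in T3.

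Of 26 measured genes of collagen modification and cross-linking, 2 were higher in every DTC tumor than in any mammary tumor, *P4ha2* and *P4ha1*. Another 2, *Adamts3* and *Tgm2*, were wholly lower. Over all genes the shares were 3.89% higher and 5.76% lower, and over non-dim genes 4.97% and 8.59%. Of 30 genes listed for collagen maturation, 26 were measured and 12 tested. None passed the adjusted p of 0.05 in limma, and the median log2 fold change was -0.01. At an unadjusted limma p of 0.05, 3 of the 12 were higher and 3 lower in DTC tumors. Over all tested probe sets, 6.47% were higher and 8.28% lower. Of the 8282 tested genes with 1 probe set each, 636 were higher and 1002 lower. Of the 5520 non-dim ones, 547 were higher and 953 lower. *P4ha2* and *P4ha1*, catalytic subunits of the prolyl hydroxylase that stabilizes the collagen triple helix, had the largest and the third largest difference of the list. *P4ha2* read 6.44, 6.06, 5.95 and 5.75 in DTC1 to DTC4 and 5.31, 5.15, 5.51 and 5.03 in T1 to T4, a log2 fold change of 0.80 (SE 0.19, limma adjusted p = 0.127, exact permutation p = 0.0286).

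*P4ha1* read 8.77, 8.40, 8.77 and 8.25 in DTC1 to DTC4 against 7.57, 7.92, 8.02 and 7.94, a log2 fold change of 0.68 (SE 0.19, limma adjusted p = 0.158, exact permutation p = 0.0286). The third subunit gene, *P4ha3*, differed by -0.12 and *P4hb*, the partner subunit of all 3, by 0.14, both with overlapping groups. *Loxl3*, a lysyl oxidase of collagen cross-linking, read 8.66, 8.54, 9.09 and 8.68 against 9.52, 8.99, 9.93 and 9.43, a log2 fold change of -0.72 (SE 0.22, limma adjusted p = 0.197, exact permutation p = 0.0571). Only DTC3 and T2 overlapped. The other 3 with an unadjusted p below 0.05, named after their values were seen, were the procollagen peptidase gene *Adamts3* (-0.52), the cross-linking transglutaminase gene *Tgm2* (-0.55) and the peptidase gene *Adamts14* (0.38). *Plod2*, a lysyl hydroxylase gene, differed by 0.35 (limma adjusted p = 0.414), *Lox* by 0.37 (limma adjusted p = 0.635) and the collagen chaperone gene *Serpinh1* by 0.11.

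**Figure D5:**
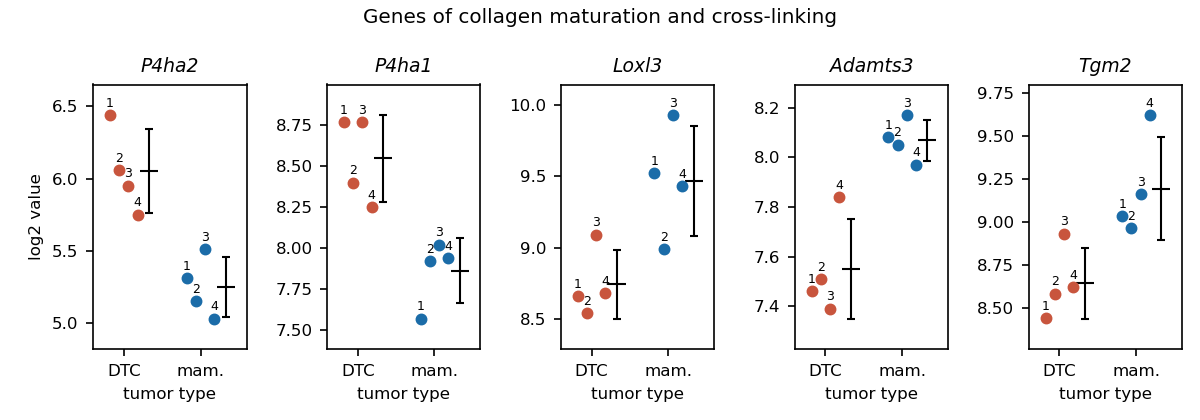
Log2 value (y axis) of 5 genes of collagen maturation and cross-linking in each DTC and mammary tumor (x axis); points carry the tumor's number, and bars are the mean ± SD of 4 tumors. *P4ha2* and *P4ha1* are higher in all 4 DTC tumors, *Adamts3* and *Tgm2* are lower in all 4, and *Loxl3* overlaps by 1 pair.

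Of 16 listed receptors of collagen and matrix, 15 were measured and 10 tested, and 0 had an unadjusted limma p below 0.05, with a median log2 fold change of -0.14. The largest differences were in *Cd36*, a thrombospondin receptor of fat and vessel cells, at -0.60 (limma adjusted p = 0.583), *Itgb4*, the laminin-binding hemidesmosome integrin, at -0.30 (0.551) and *Itgb1*, the shared beta chain of collagen receptors, at -0.27 (0.472). Of 26 collagen and laminin genes outside the members, 25 were measured and 12 tested, and 0 passed the adjusted p of 0.05 in limma. *Lama2*, the alpha chain of muscle laminin, differed by -0.50 (limma adjusted p = 0.306) and *Col9a1*, a cartilage collagen, by -0.44 (limma adjusted p = 0.288), both with an unadjusted p below 0.05. *Col6a5* differed by -0.28 and was not tested. The receptor gene *Ddr1*, 1 of 15, and *Col9a1*, 1 of 25, were lower in every DTC tumor than in any mammary tumor. Over all genes that share was 5.76%, and over non-dim genes 8.59%.

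Fibroblast markers had lower means in DTC tumors for 8 of 10 genes. Of the 9 tested, 0 passed the adjusted p of 0.05 in limma. At an unadjusted limma p of 0.05, 5 were lower in DTC tumors, where 8.28% of all tested probe sets were. Counted by gene, with 1 probe set each, 1002 of 8282 tested genes and 953 of the 5520 non-dim ones were lower. The median log2 fold change of the 10 was -0.40. The small proteoglycan *Lum* differed by -1.23 (limma adjusted p = 0.128), *Dcn* by -0.85 (0.245) and *Islr* by -0.67 (0.166). *Lum* and *Islr*, 2 of the 10, were lower in every DTC tumor than in any mammary tumor, where 5.76% of all genes and 8.59% of non-dim genes were. The log2 of the summed level of the 10 markers was 10.73 to 11.42 in DTC tumors and 11.37 to 11.85 in mammary tumors. Only *Twist2* of the 10 was dim in both groups. Fibroblast marker medians, as deviations from the 8-tumor means, were -0.25, 0.05, -0.38 and -0.06 in DTC1 to DTC4. In T1 to T4 they were 0.17, 0.53, 0.13 and 0.23. For the fibrillar collagens the same medians were -0.06, -0.08, 0.16 and -0.10 in DTC1 to DTC4. They were -0.19, -0.10, 0.29 and 0.11 in T1 to T4. Whether the 2 sets of medians follow each other was not tested. The part of the fibroblast markers in the values of *Mfap5*, *Lamb2* and *Col11a1* was not tested.

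Pericyte and smooth muscle markers summed to 10.45 to 10.94 in DTC tumors and 10.06 to 10.44 in mammary tumors on the same scale. Their median log2 fold change was 0.01. Of the 7 genes *Acta2*, smooth muscle actin, alone separated the groups, at 1.01 (limma adjusted p = 0.148). It was wholly higher in DTC tumors, where 3.89% of all genes and 4.97% of non-dim genes were. *Cnn1* differed by 0.38, *Notch3* by -0.21, *Rgs5* by 0.00, *Cspg4* by 0.01 and *Myh11* by -0.05. The part of the pericyte and smooth muscle markers in the values of *Col18a1* was not tested. Endothelial markers overlapped, at 10.02 to 10.34 in DTC tumors and up to 10.33 in mammary tumors, with *Emcn* (0.26), *Vwf* (0.15) and *Kdr* (0.05) the largest differences. Luminal epithelial markers stood above the dim limit save *Krt19*, with *Epcam* at -0.38 (limma adjusted p = 0.288), *Krt18* at 0.30 and *Krt8* at 0.26. Of the 7, *Epcam* alone was wholly lower in DTC tumors, where 5.76% of all genes were. Of 4 basal markers, 3 were dim (*Krt17* 0.42, *Krt14* -0.12, *Trp63* 0.04). Macrophage markers differed by at most 0.33 (*Itgam*, then *Cd163* at 0.29 and *Cd68* at 0.16). Fat cell markers summed to 8.27 in DTC3 and 10.53 in DTC2, with *Cidec* at -0.27, *Fabp4* at -0.25 and *Plin1* at 0.20 between the types. Muscle markers differed by -0.58 (*Mb*), 0.33 (*Myh4*) and 0.14 (*Tnnt3*). All 5 bone and cartilage markers were dim in both groups, with *Matn1* at 0.33, *Bglap* at -0.27 and *Sp7* at 0.10.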

How the data were processed

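RNA of 8 tumors was hybridized to Affymetrix MoGene 2.0 ST arrays, 1 array per tumor, starting from 500 ng of RNA per the labels (the methods give another amount). The authors normalized the scanner files by sketch quantiles with oneChannelGUI and deposited 1 log2 value for each of 41345 probe sets. The way probes were summarized, and all software versions, were not given in the sources used. The table held no detection calls and had not been filtered. Array correlations over probe sets were 0.975 to 0.988, and 0 pairs of arrays were identical. The number of arrays limits the precision.

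Probe sets were named from the platform annotation: 23521 had 1 symbol, 1820 several and 16004 none, and only the first were used, which gave 22180 genes. The 1108 olfactory receptor probe sets, with a median of 3.04, set the dim limit. Following the methods, limma 3.58.1 in R 4.3.3 (lmFit, eBayes, Benjamini-Hochberg) was run without covariates on 18877 probe sets, those whose interquartile range exceeded 0.25. It was also run on simulated data, and the outcome is not given here. How often limma would find changes as small as those of the members is therefore not stated. For single genes an exact permutation test over the 8 tumors, two-sided, was added. Class values are medians, with no test.

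The members, classes and other lists were chosen with earlier results of these data known. Values for every tumor are given for members whose groups do not overlap and for the 2 largest differences in each class, and the 3 largest differences are named in each other list. A further probe set existed for 5 members. Its log2 fold change was 0.20 for *Col1a2*, 0.13 for *Col5a1*, 0.04 for *Nid1*, -0.27 for *Ctgf* and 0.11 for *Col6a1*, each from a lower-reading probe set, dim for *Col5a1* and *Ctgf*. For *Col1a2*, *Nid1*, *Ctgf* and *Col6a1* its sign was opposite to that of the probe set used. Of 129 related and marker genes, 122 were matched, and the rest were not analysed here. As alternatives, the filter, the treatment of dim and of several probe sets, the normalization, the variance model and array weights were varied, the replicate number was used as a block, and tumors were left out singly.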

Additional observations from a re-analysis of the deposited data

Results flagged for a closer look

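In groups of 4 tumors, the highest or lowest tumor was marked where its gap to the nearest other tumor, as a share of the group's whole range, passed the critical value of Dixon's test at a level of 0.05. Of 104 groups tested, over 46 members and 6 class medians, 8 were marked, and chance marks about 1 in 20. *Col11a1* was marked in both groups, for DTC3 at 9.50 above a next value of 8.97, and for T3 at 9.90 above 9.52. *Tnc* was marked for T3, at 9.23 above 8.03. *Cyr61* was marked for T4, which was low at 8.44 below 9.33. *Col14a1* was marked for DTC4, at 8.42 above 7.43, and *Thy1* for DTC4, low at 7.34 below 7.54. Of the class medians, the fibrillar collagens were marked for DTC3, at 0.16 above the 8-tumor means with the next tumor at -0.06, and the basement membrane genes for DTC1, at 0.20 with the next at 0.01.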

How the results depend on the processing

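No setting brought a member past the adjusted p of 0.05 in limma, and the 13 members described with full tests kept their direction in every setting that tested them, read from the same probe set. The second probe set of *Col6a1*, at 0.11, turned its direction. Of the 13, the closest to the threshold was *Col15a1*, with a limma adjusted p of 0.0806 to 0.595 over its alternatives, and *Mfap5* ranged from 0.0838 to 0.424. With an interquartile range above 0.5, 1 member was higher and 1 lower at an unadjusted p of 0.05, from fewer members tested, 11 in place of 26. Leaving out single tumors gave 1 to 3 higher at that p, the low value without DTC1, and 2 to 4 lower. It gave 1 to 4 members wholly higher and 2 to 4 wholly lower, where 5.08% to 7.36% and 6.83% to 9.17% of all genes were. The 4 wholly higher without DTC4 were *Col4a1*, *Col18a1*, *Thbs2* and *Thy1*; the 2 without DTC2 added *Fbln2*, the 2 without DTC3 *Col15a1*, the 3 without T3 *Lamc1* and *Fbln2*, and the 2 without T4 *Nid2*. The 4 wholly lower without DTC3 added *Col11a1* and *Fbln1*. Median centering left 0 wholly higher and 3 wholly lower. Past the filter the fibroblast surface class held 1 gene, *Thy1*, at 0.17, and the other collagens held 3, with a class median of -0.22. Leaving out single tumors, the matricellular median ran from -0.15 to 0.44, the latter without DTC4, and the other collagens from -0.26, without DTC3, to -0.03.

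Probe sets called over the whole array, 25, became 15 with an interquartile range above 0.5, 49 without dim probe sets, 74 where each gene had 1 probe set, 57 under a robust trended variance and 46 under array weights, and ran from 9 (without T3) to 47 (without DTC3) when 1 tumor was left out. The cause of these changes was not tested. With the replicate number as a block, 7 probe sets were called and 0 members, with 3 members higher and 3 lower at an unadjusted p of 0.05. Whether the numbers pair the tumors was not settled. Same-numbered tumors correlated at 0.01, 0.01, 0.17 and 0.19 in their deviations from the group means, and 2 of 4 correlated best with their own number. No test was made on these correlations. The number of arrays, 4 in each group, limits the precision.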
